A study of Homo sapiens with 6 samples.

Results

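The 9 genes MMP1, MMP7, MMP14, TIMP1, TIMP2, TIMP3, PLAU, PLAUR and PLAT, which encode metalloproteinases, their inhibitors and parts of the plasminogen activation system, were followed by RNA-sequencing in parental and adapted H1975 cells. They were taken by symbol, with earlier results of these data known, and all 9 have a row among the 27216 rows of the table. H1975 is a human non-small cell lung cancer line with mutant EGFR, labelled as wild-type in genotype in every sample, and both groups are the same line (grown with 10% FBS in DMEM by the labels, in another medium by the study's methods). The 3 parental samples were labelled as Osi (osimertinib, an EGFR tyrosine kinase inhibitor) for 0 h and their columns are named for DMSO, whereas the 3 adapted samples are given as 1000 nM Osi for 72 h. The study's list of compounds gives a lower concentration of Osi, and its methods for RNA-sequencing give none. Apoptotic cells had been washed off before RNA was taken, so the adapted samples are the cells that stayed attached, and a change within cells cannot be told apart from the loss of some cells. In bulk RNA, fewer cells that express a gene and less RNA per cell cannot be told apart either. A single line was used, and nothing states whether the 3 samples of a group were separate cultures, so the p-values measure only the spread between these samples.

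The matrix metalloproteinases (MMPs) are zinc enzymes, made as inactive proforms, that cut collagens, laminins and other proteins outside the cell. The tissue inhibitors of metalloproteinases (TIMPs) bind and block them, and TIMP2 also forms a complex with MMP14 that brings proMMP2 to the cell surface for activation. The plasminogen activators PLAU (urokinase) and PLAT (tissue-type activator) convert plasminogen into plasmin, and PLAUR anchors urokinase at the cell membrane. Genes of both systems are known in carcinoma cells for their part in invasion.

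Levels are given as FPKM, that is, fragments scaled to transcript length and library size, a unit assumed here because none was named. Differences are given as log2 fold changes between adapted and parental samples on the log2(FPKM + 1) scale, which understates changes of low genes. The linear values summed to 375342 to 387753 per sample, and the depth of each library is unknown. All 6 epithelial markers fixed for this line were above 1 FPKM in every sample, with summed levels of 4077 to 4112 FPKM in parental and 3887 to 4130 in adapted cells, although within this sum KRT7 rose and KRT8, KRT18 and KRT19 fell past the threshold. The summed fibroblast markers were 3.04 to 3.16 FPKM in parental and 7.65 to 9.21 in adapted cells, where only COL1A1 of 5 exceeded 1 FPKM throughout, and the leukocyte markers were 73.9 to 76.3 and 14.6 to 29.6 FPKM, where only CD68 of 5 did so and CD3E was listed at 0. The endothelial markers summed to 1.13 to 1.88 and 1.49 to 3.50 FPKM, of which PECAM1 went from 0.994 to 1.63 down to 0.0531 to 0.0756 FPKM and CDH5 from 0.121 to 0.205 up to 1.28 to 3.22 FPKM. The part of these differences in the results below was not tested. Adapted replicate 1 stood apart, with a correlation of 0.991 to the other adapted samples, which correlated at 0.996 with each other, across genes, which are not independent replicates. None of the 9 genes is among the 147 rows whose values were offset by a constant in 1 group.

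In adapted cells, TIMP2 rose 3.59-fold in mean FPKM, while MMP7, TIMP1, PLAU, PLAUR and PLAT fell 1.21-fold to 1.87-fold. These 6 genes had a mean log2(FPKM + 1) of at least 1 and were tested with limma over 12656 rows. All 6 passed the threshold of 0.05 on the adjusted p, 1 as higher and 5 as lower in the adapted group. Of all rows tested, 56.9% passed it, 30.7% as higher and 26.2% as lower. The median log2 fold change of the 6 genes was -0.57, against 0.028 over all rows tested. MMP1, MMP14 and TIMP3 were below the level filter, with no value above 0.781 FPKM. In each of the 6 tested genes the 3 adapted values lay wholly to one side of the 3 parental values, which held for 66.3% of all rows tested. The same was so for MMP1, MMP14 and TIMP3, which are not among the rows tested. For any single gene, 3 samples against 3 cannot give an exact permutation p under 0.1.

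**Figure D1:**
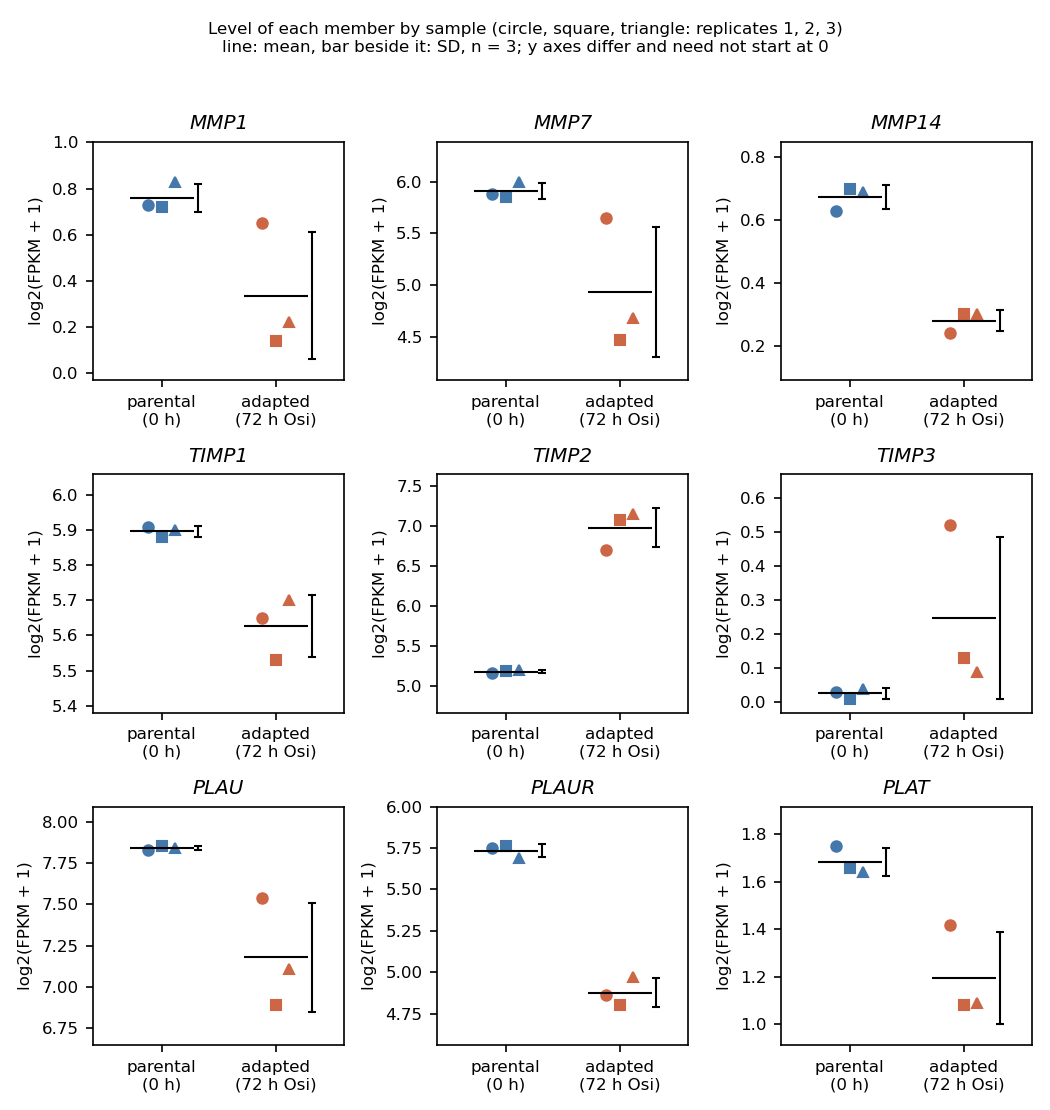
Each panel plots log2(FPKM + 1) of one gene in the 3 parental (0 h, blue) and 3 adapted (72 h of Osi, orange) samples, with circles, squares and triangles for replicates 1, 2 and 3, a line for the mean and a bar for the SD. TIMP2 was higher in all 3 adapted samples (6.70 to 7.15 against 5.16 to 5.19), and PLAUR was lower in all 3 (4.80 to 4.97 against 5.69 to 5.76). Adapted replicate 1 was nearest to the parental samples for MMP1, MMP7, TIMP2, PLAU and PLAT.

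In parental cells the order of the mean levels per length was PLAU (228 ± 1.81 FPKM, SD, n = 3), MMP7 (59.3 ± 3.30), TIMP1 (58.6 ± 0.61), PLAUR (52.2 ± 1.44), TIMP2 (35.1 ± 0.336), PLAT (2.21 ± 0.125), MMP1 (0.693 ± 0.0766), MMP14 (0.592 ± 0.0427) and TIMP3 (0.0196 ± 0.0112). Only the neighbours MMP7 and TIMP1 overlapped in their values. In adapted cells TIMP2 moved up to follow PLAU, and the order was PLAU (147 ± 34.9 FPKM, SD, n = 3), TIMP2 (126 ± 20.4), TIMP1 (48.4 ± 2.89), MMP7 (31.7 ± 15.2), PLAUR (28.4 ± 1.76), PLAT (1.31 ± 0.322), MMP1 (0.278 ± 0.250), MMP14 (0.214 ± 0.0314) and TIMP3 (0.196 ± 0.205). Here the ranges of PLAU and TIMP2 overlapped, as did those of TIMP1 and MMP7, of MMP7 and PLAUR, of MMP1 and MMP14 and of MMP14 and TIMP3.

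MMP7, or matrilysin, a small MMP made by epithelial cells, was the most abundant of the 3 metalloproteinases. It is ENSG00000137673.8 on the minus strand of chromosome 11 from 102520508 to 102530753 (GENCODE v29, GRCh38; the labels name hg38, and the annotation behind the table is not given in the sources used here). Its level was 58.0, 56.8 and 63.0 FPKM in parental replicates 1 to 3 and 49.2, 21.2 and 24.9 FPKM in adapted replicates 1 to 3. All 3 adapted samples were lower, the first by much less than the other two. The log2 fold change was -0.97 (standard error, SE, 0.27, limma's adjusted p = 0.0188). This call was lost without parental replicate 1 (log2 fold change -0.99, limma's adjusted p = 0.0502), parental replicate 3 (-0.93, 0.0592), adapted replicate 2 (-0.74, 0.0595) or adapted replicate 3 (-0.85, 0.0663), while without adapted replicate 1 the log2 fold change was -1.33.

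The RefSeq promoters of MMP7 and PLAUR, the urokinase receptor, are shown. They were picked after the values were seen, among genes that fell, for a TGAGTCA, the consensus of AP-1 factors. Each runs from 250 bases before to 50 bases after a start site of RefSeq, on the strand of the gene, in the GRCh38.p14 build, MMP7 at chr11:102530698-102530997 and PLAUR at chr19:43670120-43670419. Capitals mark matches to AP-1 (TGANTCA) and to an ETS core (AGGAAG, here read on the other strand as its reverse complement).
MMP7: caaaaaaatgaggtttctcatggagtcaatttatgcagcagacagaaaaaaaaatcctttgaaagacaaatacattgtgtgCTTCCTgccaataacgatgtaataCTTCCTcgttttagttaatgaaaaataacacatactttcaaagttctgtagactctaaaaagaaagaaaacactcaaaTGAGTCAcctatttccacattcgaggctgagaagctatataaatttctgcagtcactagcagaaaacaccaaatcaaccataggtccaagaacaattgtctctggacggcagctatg
PLAUR: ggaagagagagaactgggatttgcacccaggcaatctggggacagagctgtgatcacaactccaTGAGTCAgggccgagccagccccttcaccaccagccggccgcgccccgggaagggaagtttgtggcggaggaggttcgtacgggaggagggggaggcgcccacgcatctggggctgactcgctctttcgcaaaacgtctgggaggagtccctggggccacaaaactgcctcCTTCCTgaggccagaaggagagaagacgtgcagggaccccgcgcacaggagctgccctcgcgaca
In the MMP7 promoter the AP-1 match began at position -67 from that start, the ETS matches at -169 and -145, and a TATAAA, left in lower case, at -30. In the PLAUR promoter the AP-1 match began at -186 and the ETS match at -15. The RefSeq start lies 6 bases inside the GENCODE gene for MMP7 and 378 bases inside it for PLAUR, so that the PLAUR window is within the gene as GENCODE draws it.
Promoters were matched for 6 of the 9 genes (MMP7, MMP14, TIMP1, TIMP3, PLAU and PLAUR), searched on both strands. No match to one motif overlapped a match to another in either promoter shown. A gene can have several promoters, and the 6 genes had 7, of which 2 are for PLAU. AP-1 was found in 2 of the 7, against 7.71% of 35116 promoters of this length, the ETS core in 4 (MMP7, TIMP1, 1 of PLAU and PLAUR) against 33.6%, TATAAA in 1 against 11.5%, and GGAATG, the core bound by TEAD factors, in 0 against 14.0%. The promoters of TIMP1 and PLAU, genes that also fell, held no AP-1 match. A match describes the letters only, and a part of it in the changes was not tested.

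MMP1, interstitial collagenase, lies in the same cluster on chromosome 11, from 102789920 to 102798160 (GRCh38, minus strand, ENSG00000196611.4). Its level was 0.655, 0.643 and 0.781 FPKM in parental and 0.564, 0.105 and 0.165 FPKM in adapted samples. The adapted samples were lower, but adapted replicate 1 was close to the parental range. Without the level filter, when 36.6% of rows passed the threshold, MMP1 did not (log2 fold change -0.42, SE 0.14, limma's adjusted p = 0.0556). Exons of MMP1 overlap those of WTAPP1, a pseudogene on the other strand, and no source states that counting used the strand.

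MMP14, or MT1-MMP, a collagenase fixed in the cell membrane, is on chromosome 14 from 22836557 to 22849027 (GRCh38, plus strand, ENSG00000157227.12). It was 0.543, 0.620 and 0.612 FPKM in parental and 0.177, 0.233 and 0.230 FPKM in adapted samples. The groups were well apart and tight, and mean FPKM was 2.77-fold lower in adapted cells. MMP14 passed the threshold in the fit without the level filter (log2 fold change -0.39, SE 0.05, limma's adjusted p = 0.00148). At such levels the +1 of the scale makes the log2 fold change much smaller than that ratio.

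The MMP cluster on chromosome 11 holds 9 genes over 435 kb, in the order MMP7, MMP20, MMP27, MMP8, MMP10, MMP1, MMP3, MMP12 and MMP13. MMP7 at one end had the highest level of them in every sample. MMP10 (stromelysin-2), next to MMP1, was 0.111 to 0.141 FPKM in parental and 0.0228 to 0.0858 in adapted samples, lower as were MMP7 and MMP1. MMP13 (collagenase-3), at the other end, was 2.13 to 2.44 FPKM in parental samples, 2.12 FPKM in adapted replicate 1 and 5.34 and 6.35 FPKM in the others, and it did not pass the threshold (log2 fold change 0.66, limma's adjusted p = 0.091). MMP12, listed at 0 in all parental samples, was 0.237 to 0.391 FPKM in adapted samples. Levels in the cluster thus did not all move one way. Only MMP7 and MMP13 passed the level filter, and of these only MMP7 passed the threshold.

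Outside the cluster, MMP24 and MMP11 were higher in adapted cells. Of the 20 other MMP genes of a list written for this work, 4 passed the level filter, 2 rose and 0 fell (limma, and also 2 and 0 at an unadjusted p under 0.05). Over all rows tested, 30.7% rose and 26.2% fell. MMP24, or MT5-MMP, a membrane-anchored enzyme best known from the nervous system, was 19.9, 20.7 and 19.4 FPKM in parental and 86.7, 99.6 and 95.1 FPKM in adapted samples. All adapted samples were far above the parental ones, and the log2 fold change was 2.17 (SE 0.07, limma's adjusted p = 1.72e-06). MMP11 (stromelysin-3) was 0.508 to 0.596 FPKM in parental and 4.28 to 4.34 FPKM in adapted samples, a log2 fold change of 1.77 (limma's adjusted p = 4.99e-06), and it passed the level filter only through the adapted samples. MMP24 shares exon positions with MMP24OS on the other strand, whose log2(FPKM + 1) was 1.45 to 1.70 in parental and 1.64 to 1.85 in adapted samples, and MMP11 shares them with CHCHD10, at 2.91 to 3.23 and 1.87 to 2.11. MMP15 (MT2-MMP) was 16.3 to 16.9 FPKM in parental and 14.6 to 19.0 in adapted samples, with overlapping groups and a 95% confidence interval of the log2 fold change from -0.27 to 0.19.

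MMP2, gelatinase A, whose proform MMP14 and TIMP2 help to activate, is named here after its values were seen. It was listed at 0 FPKM in parental replicate 1 and was 0.0283 and 0.0249 FPKM in the others, whereas it reached 4.15, 0.992 and 1.03 FPKM in the adapted samples. The adapted samples were all higher, and adapted replicate 1 stood above the other two. MMP2 was below the level filter, and without it the log2 fold change was 1.43 (SE 0.37, limma's adjusted p = 0.026). MMP9, gelatinase B, was 0.307 to 0.419 FPKM in parental and 0.176 to 0.370 FPKM in adapted samples, with overlapping groups.

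With these opposite movements, the makeup of MMP RNA differed between the groups. The summed FPKM of 23 MMP genes was 102 ± 2.49 in the parental and 156 ± 11.3 in the adapted group (± SD over 3 samples a group). MMP7 held 57.8% ± 1.85 of this sum in parental and 20.0% ± 8.01 in adapted cells, while MMP24 held 19.5% ± 1.03 and 60.5% ± 8.12 (± SD over 3 samples a group). The lowest share of MMP24 among adapted samples, 51.3% in replicate 1, was above its highest in parental samples, 20.4%. These sums and shares were formed after the values were seen.

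Of TIMP1, TIMP2 and TIMP3, only TIMP2 rose past the threshold. TIMP2, a secreted inhibitor that binds active MMPs, MMP14 among them, is ENSG00000035862.12 on chromosome 17 from 78852977 to 78925387 (GRCh38, minus strand). It was 34.7, 35.1 and 35.4 FPKM in parental and 103, 134 and 141 FPKM in adapted samples. The parental samples were nearly equal, and the lowest adapted sample was well above them. The log2 fold change was 1.80 (SE 0.12, limma's adjusted p = 2.68e-05), and the call held in each of 20 other settings, with values from 1.71 to 1.94. A total of 169 of the 12656 rows tested had a larger positive log2 fold change. CEP295NL, a gene within TIMP2 on the same strand with overlapping exons, was at a log2(FPKM + 1) of 0.10 to 0.26 in all samples. An antisense gene, AC022966.1, also overlaps TIMP2 exons and is not used here.

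TIMP1, a secreted inhibitor of most soluble MMPs, fell slightly. The gene is on the X chromosome from 47582313 to 47586789 (GRCh38, plus strand, ENSG00000102265.11), within SYN1, which lies on the other strand and was at a log2(FPKM + 1) of at most 0.10. TIMP1 was 59.1, 57.9 and 58.8 FPKM in parental and 49.2, 45.2 and 50.8 FPKM in adapted samples, so that every adapted sample was lower. The log2 fold change was -0.27 (SE 0.06, limma's adjusted p = 0.00798), the smallest among the 6 tested genes.

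TIMP3, which is bound to the extracellular matrix and also inhibits ADAM proteases, was close to 0. It is on chromosome 22 from 32801701 to 32863043 (GRCh38, plus strand, ENSG00000100234.11), within SYN3 on the other strand. It was 0.0176, 0.00949 and 0.0316 FPKM in parental and 0.432, 0.0924 and 0.0632 FPKM in adapted samples. All adapted values were higher, with adapted replicate 1 far above the other two. In the fit without the level filter TIMP3 did not pass the threshold (log2 fold change 0.22, 95% confidence interval -0.06 to 0.49, limma's adjusted p = 0.196).

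Together TIMP1 to TIMP4 summed to 95.9 ± 0.506 FPKM in parental and 175 ± 20.0 FPKM in adapted cells (± SD over 3 samples a group). TIMP1 held 61.1% ± 0.425 of this sum in parental and 27.9% ± 3.71 in adapted cells, and TIMP2 36.6% ± 0.346 and 71.7% ± 4.05, so their order was exchanged in every adapted sample. Of the 4 other metalloproteinase inhibitors of the list, A2M was listed at 0 in every sample, 3 were tested, 1 rose and 1 fell. Over all rows tested, 30.7% rose and 26.2% fell. RECK, a membrane-anchored inhibitor of several MMPs, rose from 0.806 to 0.900 FPKM in parental to 1.77 to 2.14 in adapted samples (log2 fold change 0.66, limma's adjusted p = 6.74e-04), and TIMP4 fell from 2.17 to 2.35 FPKM to 0.136 to 0.718 (log2 fold change -1.23, limma's adjusted p = 4.66e-04). Each of these had a mean log2(FPKM + 1) under 1 in 1 group. RECK passed the level filter only through the adapted samples, and TIMP4 only through the parental samples. The values of TFPI2 overlapped between groups.

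The plasminogen activation genes PLAU, PLAUR and PLAT all fell. PLAU, urokinase, is ENSG00000122861.15 on chromosome 10 from 73909177 to 73917497 (GRCh38, plus strand). It was the most abundant of the 9 genes in every sample except adapted replicates 2 and 3, with 226, 230 and 227 FPKM in parental and 185, 118 and 137 FPKM in adapted samples. All adapted samples were lower, adapted replicate 1 the least. The log2 fold change was -0.66 (SE 0.15, limma's adjusted p = 0.0081). C10orf55, on the other strand with exons that overlap those of PLAU, was at a log2(FPKM + 1) of 1.08 to 1.25 in parental and 0.49 to 1.03 in adapted samples, also lowest in adapted replicates 2 and 3. Without a statement on strand, reads of the pair cannot be told apart.

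PLAUR, the urokinase receptor, which is held in the membrane by a lipid anchor, is on chromosome 19 from 43646095 to 43670547 (GRCh38, minus strand, ENSG00000011422.11). It was 52.7, 53.2 and 50.5 FPKM in parental and 28.1, 26.8 and 30.2 FPKM in adapted samples. The groups were far apart for their spread, and adapted replicate 1 lay between the other adapted samples. The log2 fold change was -0.86 (SE 0.06, limma's adjusted p = 5.3e-05), with values from -0.90 to -0.81 over the other settings. The AP-1 match in its promoter is shown above beside that of MMP7.

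PLAT, the tissue-type activator, is on chromosome 8 from 42175233 to 42207724 (GRCh38, minus strand, ENSG00000104368.17). It was 2.35, 2.15 and 2.12 FPKM in parental and 1.68, 1.11 and 1.13 FPKM in adapted samples. All adapted samples were lower, by a log2 fold change of -0.49 (SE 0.11, limma's adjusted p = 0.00888). PLAU and PLAT together summed to 230 ± 1.73 FPKM in parental and 148 ± 35.2 FPKM in adapted cells (± SD over 3 samples a group).

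Of 15 other genes of the plasminogen system, 7 were tested, 1 rose and 4 fell (14.3% and 57.1%). Over all rows tested the shares were 30.7% and 26.2%, and no list test was run on these few genes. LRP1, an endocytic receptor that clears protease and inhibitor complexes from the cell surface, rose from 4.32 to 4.80 FPKM in parental to 7.78 to 8.57 FPKM in adapted samples (log2 fold change 0.72, limma's adjusted p = 1.91e-04). LRP1 shares exon positions with STAT6 on the other strand, which was at a log2(FPKM + 1) of 5.79 to 5.86 in parental and 6.18 to 6.39 in adapted samples. SERPINA5, the protein C inhibitor, which also inhibits urokinase, fell from 8.49 to 10.0 FPKM to 1.46 to 1.85 FPKM (log2 fold change -1.98, limma's adjusted p = 7.28e-06), and its exons overlap those of SERPINA4 on the same strand, at a log2(FPKM + 1) of 1.32 to 1.39 in parental and 0.20 to 0.42 in adapted samples, and of AL049839.2, at 1.68 to 2.51 in parental and 2.03, 0.16 and 0 in adapted samples. SERPINE2 (protease nexin-1), another inhibitor of urokinase, was 14.2 to 14.6 FPKM in parental, 9.50 FPKM in adapted replicate 1 and 2.59 and 2.74 FPKM in the others (log2 fold change -1.56, limma's adjusted p = 0.0103). SERPINB2, of the same list, was higher in the adapted samples but below the level filter. It was 0.0171 to 0.0471 FPKM in parental and 2.39, 0.0935 and 0.227 FPKM in adapted samples. Without the filter it did not pass the threshold (log2 fold change 0.68, limma's adjusted p = 0.268). PLGRKT, a plasminogen receptor, fell from 14.5 to 15.3 FPKM to 6.34 to 9.26 FPKM (log2 fold change -0.87, limma's adjusted p = 7.23e-04), and ENO1, enolase, which also binds plasminogen at the cell surface and is named outside the rule to complete the count, fell (log2 fold change -0.79, limma's adjusted p = 0.00152). ANXA2 and S100A10, also tested in this list, did not pass the threshold. ANXA2 was 724 to 757 FPKM in parental and 584 to 679 FPKM in adapted samples (log2 fold change -0.21, limma's adjusted p = 0.0599). S100A10 was 129 to 138 FPKM in parental and 130 to 173 FPKM in adapted samples, with overlapping groups (0.19, limma's adjusted p = 0.171). Plasminogen itself (PLG) was listed at 0 in every sample.

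**Figure D2:**
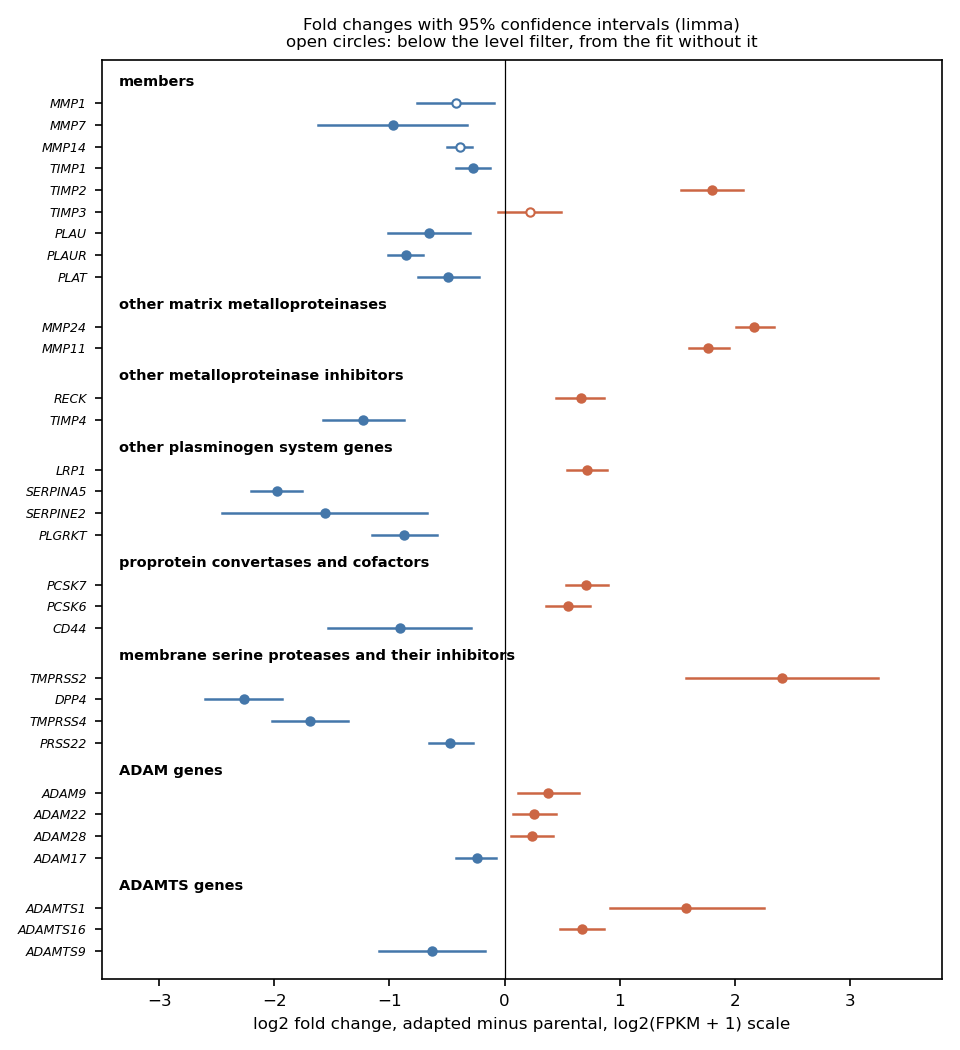
Points give the log2 fold change (adapted minus parental, log2(FPKM + 1) scale) of the 9 genes and of the genes named from each wider list, lines give 95% confidence intervals from limma, and open circles mark genes below the level filter, taken from the fit without it. TMPRSS2 at 2.41, MMP24 at 2.17 and TIMP2 at 1.80 lie farthest to the right, and DPP4 at -2.26 farthest to the left.

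To set an enzyme against an inhibitor, or a receptor against its ligand, within a sample, 4 ratios of FPKM were compared between the groups by two-sided exact permutation tests, whose adjusted p over the 4 pairs could not go below 0.1. The MMP14/TIMP2 ratio was 0.0156 to 0.0177 in parental and 0.00163 to 0.00174 in adapted samples, a mean 9.91-fold lower (exact permutation p = 0.1, adjusted 0.3). All adapted samples lay below the parental ones, and with 1 added to each FPKM the log2 difference was -2.19 in place of -3.31.

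The other 3 ratios did not separate the groups. MMP7/TIMP1 was 0.981 to 1.07 in parental samples, within that range in adapted replicate 1, and 0.468 and 0.489 in the others (log2 difference -0.72, exact permutation p = 0.3, adjusted 0.3). MMP1/TIMP1 was 0.0111 to 0.0133 in parental samples and 0.0115, 0.00232 and 0.00324 in adapted replicates 1 to 3 (log2 difference -1.42, exact permutation p = 0.3, adjusted 0.3). Without adapted replicate 1, the log2 differences were -1.08 for MMP7/TIMP1 and -2.10 for MMP1/TIMP1. PLAUR/PLAU was 0.222 to 0.233 in parental samples and 0.152, 0.227 and 0.221 in adapted samples, so that receptor and ligand fell in near proportion in adapted replicates 2 and 3 (log2 difference -0.22, exact permutation p = 0.2, adjusted 0.3, and -0.03 without adapted replicate 1).

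The 9 genes also differed in how far the adapted samples spread. In 6 of them (MMP1, MMP7, TIMP1, TIMP2, PLAU and PLAT) adapted replicate 1 lay between the parental mean and the mean of the other adapted samples. This was so in 50.3% of all rows tested, which leave out MMP1, MMP14 and TIMP3. The SD of log2(FPKM + 1) over parental samples was 0.01 for TIMP1, TIMP2 and PLAU, and over adapted samples it was 0.09, 0.24 and 0.33. For MMP7 the adapted SD on this scale was 0.63, and PLAUR and MMP14 were tight in both groups, with SDs of at most 0.09. On this scale the spread of MMP1, MMP14 and TIMP3, all under 1 FPKM, is compressed. The small SD of MMP14 therefore cannot be set beside that of PLAUR. In FPKM, adapted MMP14 was 0.214 ± 0.0314 and adapted TIMP2 126 ± 20.4 (SD, n = 3).

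Among 11706 other named genes tested, those whose 6 centred log2 values were closest to TIMP2 were SMPD1 (acid sphingomyelinase, root mean square difference 0.0274 over 6 samples), PLCE1 (0.0459) and PTPRU (0.0487), and those closest to MMP7 were FABP5 (a fatty acid binding protein, 0.0801), SPRY1 (a feedback inhibitor of receptor tyrosine kinase signaling, 0.085) and ZNF655 (0.0949). SMPD1 was at a log2(FPKM + 1) of 3.42 to 3.49 in parental and 4.94, 5.39 and 5.43 in adapted samples. SPRY1 was at 3.59 to 3.68 in parental samples and at 3.23, 2.33 and 2.45 in adapted samples, with adapted replicate 1 nearest to the parental level, as in MMP7. The likeness describes these 6 values only.

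Processing enzymes and cofactors of the MMPs moved in both directions. Of 6 genes in this list, 5 were tested, 2 rose and 1 fell (30.7% and 26.2% over all rows tested). FURIN, the convertase that removes the propeptide of MMP14, was 20.5 to 21.1 FPKM in parental and 20.7 to 22.6 FPKM in adapted samples (log2 fold change 0.07, 95% confidence interval -0.07 to 0.21), and BSG (EMMPRIN), an inducer of MMPs in neighboring cells, was 175 to 177 and 175 to 210 FPKM (0.09, -0.09 to 0.28). The related convertases PCSK7 (log2 fold change 0.71, limma's adjusted p = 2.93e-04) and PCSK6 (0.55, adjusted p = 0.0011) rose, and the exons of PCSK7 overlap those of TAGLN on the other strand, which was at a log2(FPKM + 1) of 1.75 to 1.78 in parental and 3.63 to 4.39 in adapted samples. CD44, which can dock MMPs at the cell surface, was 140 to 172 FPKM in parental and 130, 68.0 and 60.9 FPKM in adapted samples (log2 fold change -0.91, limma's adjusted p = 0.0206), but the threshold was missed when parental replicate 1 or 2 or adapted replicate 2 or 3 was dropped (limma's adjusted p up to 0.0758). Over all 7 wider lists, 40 of 87 genes were tested, and 12 rose and 11 fell, 30.0% and 27.5%, near the shares over all rows. These counts include genes that met the level filter only through the group where they were higher. There were 5 such genes among the 40, and 4 of them passed the threshold.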

How the data were processed

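RNA-sequencing of 6 samples of H1975 cells was analyzed, 3 parental and 3 adapted. The authors deposited 1 table of log2 values with 1 column per sample, and the DMSO and OSI columns were assigned by their group and number. The unit was not named. It was taken as log2(FPKM + 1), because undoing this transform gave numbers with 6 decimals in 27069 of 27216 rows. The remaining 147 rows did so after a constant was subtracted from 1 group. The submitters' processing notes name Bowtie2 2.1.0, STAR, edgeR and hg38 without roles, and which of them aligned or quantified is not given in the sources used here. The labels describe RNase R, which digests linear RNA, ahead of library construction, whereas the study's methods mention only total RNA. If used, it would lower linear transcripts unevenly. The count model of the study's methods was not used here, since it needs counts.

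Rows with a mean of at least 1 (12656) were fitted with limma 3.58.1 in R 4.3.3 (lmFit, eBayes with an intensity trend, no block), p-values adjusted by Benjamini-Hochberg, threshold 0.05. Confidence intervals are at 95%. Depth is unknown, so the only error is the spread between samples. Ratios were tested by exact permutation (scipy 1.17.1). One item of the lists, with the ratios that use it, is not reported here, and list counts and adjustments over ratios leave it out. Positions are from GENCODE v29 and promoters from RefSeq. limma was tested on simulated data. The 9 genes and all lists were chosen with earlier results of these data known. Genes named are the 9, up to 3 that rose and up to 3 that fell most in each list past the threshold without overlap between groups, and the 3 closest to the member with the largest rise and to the one with the largest fall. Other list genes (such as MMP2, MMP9, MMP13, MMP15, SERPINB2, ANXA2, S100A10, ENO1, FURIN and BSG) were named after their values were seen. Tried as alternatives were a pseudocount of 0.1, 2 other filters, 4 scalings, 2 forms of eBayes, the replicate block, each sample left out, rows left out or corrected, and a fold limit.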

Additional observations from a re-analysis of the deposited data

How the results depend on the processing

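No log2 fold change of the 6 tested members or of the 22 list genes named changed direction under any alternative. TIMP2 kept its call in all of them. The 5 falling members were called in every alternative that tested them (PLAT was below the stricter filter), except for MMP7 without parental replicate 1 or 3 or adapted replicate 2 or 3, and with an added limit of 1 on the size of the log2 fold change, which left 0 of the 5 called as lower (limma, 5 without the limit), 1328 of 7202 rows over the whole table, and 4 higher and 5 lower in the wider lists. The stricter filter (mean of at least 3) left fewer rows to test and called 4532 rows, with 4 higher and 7 lower in the wider lists, and no filter left more to test and called 21 of the wider lists as higher. Each sample left out in turn gave 5763 to 8370 rows, 1 member higher and 4 to 5 lower, and 9 to 18 higher and 8 to 15 lower in the wider lists. Of the 22 list genes, 16 kept their call in all 6 such fits, and CD44, ADAM9, ADAM17, ADAM22, ADAM28 and ADAMTS9 did not. With 1 added to both FPKM values the log2 differences were -0.15 for MMP1/TIMP1 and -2.19 for MMP14/TIMP2. No gene of a pair carries a constant, so that alternative gave no other value. Same-numbered samples did not deviate together (correlation of deviations -0.0509, -0.0309 and -0.0203 across rows), so the replicate block used only a shared number. With the replicate block 6761 rows passed the threshold, 1 member was higher and 5 were lower, and ADAM17 and ADAM22 lost their call. Unknown depth limits what can be said of MMP1, MMP14 and TIMP3, all under 1 FPKM.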

Other observations

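Serine proteases, most of them membrane-bound, which act at the epithelial surface beside the plasminogen system, moved in both directions. Of 12 such genes and their inhibitors, 10 were tested, 1 rose and 3 fell in adapted cells (limma's adjusted p under 0.05). Over all rows tested, 30.7% rose and 26.2% fell. TMPRSS2, an airway epithelial protease, was at a log2(FPKM + 1) of 1.09 to 1.14 in parental samples and 2.59, 3.95 and 4.05 in adapted samples (log2 fold change 2.41, limma's adjusted p = 0.00103), while TMPRSS4 fell from 9.30 to 14.0 FPKM to 2.54 to 3.12 FPKM (log2 fold change -1.69, limma's adjusted p = 7.94e-05). DPP4, a dipeptidyl peptidase of the cell surface, fell from 24.7 to 26.3 FPKM to 3.75 to 6.04 FPKM (log2 fold change -2.26, limma's adjusted p = 2.39e-05), and PRSS22 fell (log2 fold change -0.47, limma's adjusted p = 0.00269). ST14 (matriptase) and its inhibitors SPINT1 and SPINT2 overlapped between the groups.

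The ADAM genes, only some of which encode proteases that shed proteins from the cell surface, moved in both directions. Of 11 genes, 6 were tested, 3 rose and 1 fell (30.7% and 26.2% over all rows tested). ADAM9 (log2 fold change 0.38), ADAM22 (0.26) and ADAM28 (0.24) rose, and ADAM17 (-0.24) fell. ADAM17, the enzyme that sheds TNF and several EGFR ligands, was at a log2(FPKM + 1) of 4.93 to 5.01 in parental and 4.58 to 4.82 in adapted samples (log2 fold change -0.24, limma's adjusted p = 0.0267), and its exons overlap those of IAH1 on the other strand, at 3.96 to 4.06 and 3.75 to 3.87. All 4 lost the call in at least 4 of the 6 fits that left out a sample. Below the level filter, ADAM12 went from 0.0934 to 0.148 FPKM in parental to 1.54 to 1.73 FPKM in adapted samples (log2 fold change 1.23 without the filter, limma's adjusted p = 9.42e-05) and ADAM19 from 0.0141 to 0.0394 to 0.391 to 0.821 FPKM (0.58, adjusted p = 0.0068), both named after their values were seen. Of 19 ADAMTS genes, which cut proteoglycans and procollagens, 5 were tested, 2 rose and 1 fell (30.7% and 26.2% over all rows tested). ADAMTS1 rose by a log2 fold change of 1.58 (limma's adjusted p = 0.00261), passing the level filter only through the adapted samples, ADAMTS16 rose by 0.67 (limma's adjusted p = 4.11e-04), and ADAMTS9 fell (log2 fold change -0.63, limma's adjusted p = 0.0266), a call lost in 5 of the 6 fits that left out a sample (adjusted p up to 0.0861) and without the level filter (0.0597).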
